A study of Mus musculus with 12 samples.

Results

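A set of 34 genes of sterol and fatty acid synthesis was followed in glomeruli, the filtering units of the kidney, from 12 male mice. They were chosen by symbol, and all 34 were among the 14096 genes listed in every library. They comprise 18 enzymes of the path from acetyl-CoA to cholesterol, 5 regulators of that path, 6 fatty acid enzymes, 3 sterol carriers or exporters and 2 sterol-sensing receptors. All mice lacked endothelial nitric oxide synthase (eNOS-/-, C57BL/6J background) in every cell, controls included. There were 4 groups of 3: nondiabetic mice given vehicle, nondiabetic mice given arctigenin (ATG), diabetic mice given vehicle and diabetic mice given ATG. Streptozotocin (STZ), which destroys insulin-producing cells, was given to 8-week-old mice for 5 days at 50 mg/kg to make them diabetic. ATG at 40 mg/kg/day dissolved in 5% DMSO, or 5% DMSO alone as vehicle, was gavaged for 8 weeks, starting 10 weeks after induction. The mice were killed 18 weeks after induction.

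Cells make cholesterol from acetyl-CoA through mevalonate, squalene and lanosterol. When membrane sterol is low, the escort protein SCAP carries the SREBP factors (genes Srebf1 and Srebf2) to the Golgi for activation, while INSIG proteins hold them back when sterol is plentiful. The liver X receptors (LXR, genes Nr1h2 and Nr1h3) respond to oxysterols and switch on the exporters ABCA1 and ABCG1, and handling of cholesterol by podocytes has long been studied in diabetic kidneys.

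The deposited value of a gene is the log2 of its scaled reads, not divided by gene length. Reads on listed genes ranged from 23.6 to 29.8 M (mega) per mouse, and each member had at least 206 reads in every mouse. The labels call the tissue glomerulus, and the mean log2 value of 20 podocyte markers was 12.9 to 14.5 in every mouse, against 11.8 to 13.2 for 20 endothelial markers, 10.5 to 11.8 for 14 listed of 15 mesangial markers and 7.66 to 9.09 for 18 listed of 24 leukocyte markers. All 36 tubule markers were listed too, and none was at 0. Their mean was 11.9 to 12.2 in vehicle-treated and 12.4 to 12.9 in ATG-treated nondiabetic mice, and 10.0 to 11.4 in vehicle-treated and 10.8 to 11.2 in ATG-treated diabetic mice, so that it moved with the groups. The endothelial mean moved too, at 12.7 to 12.8 in vehicle-treated and 11.8 to 12.5 in ATG-treated nondiabetic mice and 13.1 to 13.2 and 13.2 in the diabetic groups, vehicle before ATG. The mesangial mean was 11.4 to 11.8 in vehicle-treated and 10.5 to 10.9 in ATG-treated nondiabetic mice, and 11.3 to 11.6 and 11.5 to 11.7 in the diabetic groups. The leukocyte mean was 8.10 to 8.73 in vehicle-treated and 7.66 to 8.06 in ATG-treated nondiabetic mice, and 8.59 to 9.09 and 8.02 to 8.87 in the diabetic groups. The podocyte mean was 13.9 to 14.1 in vehicle-treated and 12.9 to 14.1 in ATG-treated nondiabetic mice. In the diabetic groups it was 13.8 to 14.5 with vehicle and 13.9 to 14.2 with ATG. The tubule mean entered an alternative fit given below, and the part of podocyte, endothelial, mesangial and leukocyte RNA in the results was not tested. The labels' protocol goes on to dissociation and a cell sort for EYFP, steps that are absent from the study's methods. In such bulk tissue, fewer cells of a type and less RNA per cell cannot be told apart. The first part of a mouse's name in the labels was shared only within a group, so whatever it stands for and the group cannot be told apart. In each nondiabetic group the 1 unnumbered mouse had a name part of its own, apart from that of the 2 numbered mice.

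Promoter sequences are shown for 5 members that carry the results below: Hmgcs1, Mvk, Idi1 and Ebp as enzymes that were called in at least 1 comparison, and Abca1 as the exporter that was lower in diabetes. Each is the 250 bases before the gene's deposited start (on GRCm38.p6), read 5′ to 3′ on the gene's own strand. The RefSeq gene reaches further upstream for Abca1 (to 53159988) and Mvk (to 114444264), into the window shown. Capitals mark TCACNCCAC (a core of the sterol response element bound by SREBP), CCAAT (the NF-Y box, which often stands beside it) and CACGTG (the E-box) on either strand. CCAAT on the opposite strand reads ATTGG.

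Hmgcs1 (chr13:119690101-119690350, plus strand): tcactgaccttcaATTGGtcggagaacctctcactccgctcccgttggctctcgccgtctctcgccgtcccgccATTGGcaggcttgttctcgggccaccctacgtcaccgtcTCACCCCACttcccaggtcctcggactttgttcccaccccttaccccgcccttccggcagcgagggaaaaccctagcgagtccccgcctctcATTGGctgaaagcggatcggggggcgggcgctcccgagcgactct
Mvk (chr5:114444019-114444268, plus strand): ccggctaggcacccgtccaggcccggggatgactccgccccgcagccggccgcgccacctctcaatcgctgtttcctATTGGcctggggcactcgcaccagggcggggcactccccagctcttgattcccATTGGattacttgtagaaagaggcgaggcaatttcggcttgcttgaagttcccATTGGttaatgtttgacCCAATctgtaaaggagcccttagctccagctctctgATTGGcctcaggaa
Idi1 (chr13:8885356-8885605, plus strand): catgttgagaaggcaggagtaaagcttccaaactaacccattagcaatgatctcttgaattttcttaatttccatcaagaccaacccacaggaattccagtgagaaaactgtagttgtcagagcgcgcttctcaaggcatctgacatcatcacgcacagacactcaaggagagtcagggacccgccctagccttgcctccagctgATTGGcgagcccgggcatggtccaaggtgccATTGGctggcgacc
Ebp (chrX:8193513-8193762, minus strand): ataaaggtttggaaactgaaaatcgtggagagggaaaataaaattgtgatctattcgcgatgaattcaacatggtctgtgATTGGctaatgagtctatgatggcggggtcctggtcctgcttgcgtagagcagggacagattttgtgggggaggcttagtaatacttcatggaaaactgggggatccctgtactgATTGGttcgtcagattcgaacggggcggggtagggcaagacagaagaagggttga
Abca1 (chr4:53159896-53160145, minus strand): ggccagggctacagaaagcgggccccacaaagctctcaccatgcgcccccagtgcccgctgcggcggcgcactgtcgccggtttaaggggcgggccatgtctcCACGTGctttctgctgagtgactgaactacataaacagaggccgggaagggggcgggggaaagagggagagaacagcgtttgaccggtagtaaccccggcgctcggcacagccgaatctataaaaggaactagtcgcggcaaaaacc

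Hmgcs1 was the member whose window held TCACNCCAC, at position -137 from the start, together with 3 CCAAT boxes. Mvk held 5 CCAAT boxes and Idi1 and Ebp 2 each, while the Abca1 window held a CACGTG and no CCAAT. Promoters were found for 27 of the 34 members, 36 promoters in all counting second starts. TCACNCCAC was in 1 of these 36, against 1.05% of all 32851 promoters searched in the same way. CCAAT was in 20 of 36 (55.6%, against 33.8% of all), CACGTG in 6 (16.7%, against 6.02%) and the GC box GGGCGG, not capitalised above, in 24 (66.7%, against 32.7%). The LXR-type direct repeat of 2 AGGTCA units spaced by 4 bases was in none, against 0.0152% of all promoters, which says only that these exact letters are not in these windows. Matches of different motifs did not overlap in the members' windows, and 1 pair of CCAAT boxes overlapped, in Fasn.

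Levels were compared between genes as RPKM, reads per kilobase of transcript and per M reads, on the linear scale. In vehicle-treated nondiabetic mice Scd2, a stearoyl-CoA desaturase, was the highest member at 123 ± 12.03 (SD, n = 3), above 95.8% of all listed genes. It was followed by Nr1h2 (51.4 ± 1.13), by Hmgcs1 (49.9 ± 4.20), which makes HMG-CoA, and by Acly (43.6 ± 1.09), which makes cytosolic acetyl-CoA. Nr1h2 and Hmgcs1 did not differ beyond their spread. The lowest were Elovl6 (3.62 ± 0.240), a fatty acid elongase, and Hsd17b7 (3.59 ± 0.229), a late sterol reductase, which did not differ beyond their spread either. Read per length, Scd2 exceeded its sister Scd1 by 15.2 times in this group.

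The effect of diabetes was compared first in vehicle-treated mice. In diabetic mice the exporter Abcg1 was higher and Abca1 lower, 3 sterol enzymes were higher and 1 lower, and none of the 6 fatty acid enzymes passed the test. In a single limma fit of the 12 mice, with p-values adjusted by Benjamini-Hochberg across the whole list of genes, 8 of 34 members (23.5%) passed an adjusted p of 0.05, against 18.9% of all genes. Higher were 6 members (against 10.2% of all genes) and lower were 2 (against 8.63%), and the median log2 fold change of the members was -0.0049, against 0.0075 for all genes. The share called was thus near that of all genes, and the results below concern single members.

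Among the exporters, Abca1 (chr4:53030789-53159895, minus strand), which loads cholesterol onto lipid-poor apolipoprotein, had log2 values of 10.77, 10.82 and 10.66 in vehicle-treated nondiabetic mice and 10.39, 10.17 and 10.28 in vehicle-treated diabetic mice. All 3 diabetic mice were below all 3 nondiabetic mice, and the difference was -0.47 ± 0.11 (log2 fold change ± SE, limma adjusted p = 0.0148). Abcg1 (chr17:31057694-31117981, plus strand), which passes cholesterol on to mature HDL, had values of 9.84, 9.95 and 9.81 in the nondiabetic and 10.30, 10.14 and 10.20 in the diabetic mice. Here all diabetic mice were above, by 0.35 ± 0.09 (limma adjusted p = 0.0206), and so was their endothelial marker mean (13.1 to 13.2, against 12.7 to 12.8).

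Within a mouse, the log2 value of Abca1 exceeded that of Abcg1 by 0.88 ± 0.040 (SD, n = 3) in vehicle-treated nondiabetic mice, by 1.26 ± 0.35 with ATG, by 0.067 ± 0.026 in vehicle-treated diabetic mice and by -0.083 ± 0.072 in ATG-treated diabetic mice. This difference does not depend on how libraries are scaled to each other. It was at least 0.85 in each of the nondiabetic mice and at most 0.087 in each of the diabetic mice. Per length, the ratio of Abca1 to Abcg1 was 1.05 and 1.36 in the nondiabetic and 0.594 and 0.535 in the diabetic groups, vehicle before ATG.

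**Figure D1:**
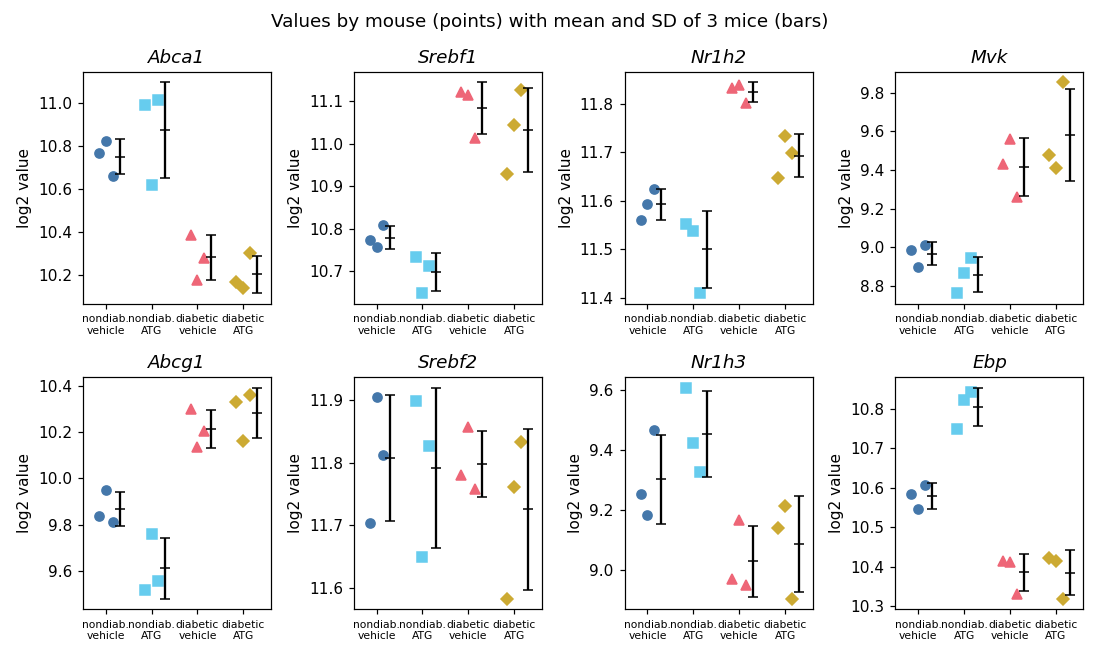
Log2 values (y axes) of the exporters Abca1 and Abcg1, the SREBP genes Srebf1 and Srebf2, the LXR genes Nr1h2 and Nr1h3 and the enzymes Mvk and Ebp in the 4 groups (x axes). Points are mice, and the bars are the mean and SD of 3. The diabetic mice sit below the nondiabetic for Abca1 and Ebp, above for Abcg1, Srebf1, Nr1h2 and Mvk, and among them for Srebf2.

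Of the LXR receptors, 1 of 2 was called. Nr1h2 (chr7:44549616-44553965, minus strand), the broadly expressed LXR-beta, had values of 11.56, 11.59 and 11.62 in vehicle-treated nondiabetic and 11.83, 11.84 and 11.80 in vehicle-treated diabetic mice, without overlap, and rose by 0.23 ± 0.06 (limma adjusted p = 0.0195). Nr1h3 (chr2:91184061-91195035, minus strand), LXR-alpha, had values of 9.25, 9.18 and 9.47 against 8.97, 9.17 and 8.95, with 1 diabetic mouse close under the lowest nondiabetic mouse and no overlap, and its fold change of -0.27 ± 0.11 did not pass (limma adjusted p = 0.113). The log2 value of Nr1h2 exceeded that of Nr1h3 in the same mouse by 2.29 ± 0.13 and 2.05 ± 0.090 in the nondiabetic and by 2.80 ± 0.11 and 2.61 ± 0.16 in the diabetic groups, vehicle before ATG.

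Of the SREBP regulators, 1 of 5 was called. Srebf1 (chr11:60199084-60220627, minus strand), whose products include SREBP-1c of fatty acid synthesis, had values of 10.77, 10.76 and 10.81 in vehicle-treated nondiabetic and 11.12, 11.11 and 11.01 in vehicle-treated diabetic mice. Every diabetic mouse was above every nondiabetic mouse, by 0.30 ± 0.06 (limma adjusted p = 0.0112), the lowest adjusted p of any member in this comparison. Its deposited position overlaps the end of Rai1 on the other strand, and whether reads were counted by strand is not given in the sources used here.

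Srebf2 (chr15:82147269-82204960, plus strand), which drives the sterol enzymes, had values of 11.70, 11.90 and 11.81 against 11.78, 11.86 and 11.76, fully overlapping, with a fold change of -0.0087 ± 0.09. The log2 lead of Srebf2 over Srebf1 was 0.93 to 1.16 in the 6 nondiabetic and 0.65 to 0.74 in the 6 diabetic mice. Insig1 (chr5:28071412-28078662, plus strand), itself a SREBP target and brake, had 10.04, 10.05 and 10.09 against 10.06, 10.09 and 9.93, and Insig2 (chr1:121304353-121328024, minus strand) had 10.41, 10.33 and 10.38 against 10.43, 10.40 and 10.41. Neither brake passed, with fold changes of -0.03 ± 0.10 and 0.04 ± 0.06, and nor did Scap (0.10 ± 0.05, limma adjusted p = 0.187).

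Of the 18 sterol enzymes, 3 were higher, 1 was lower and 14 were not called. Mevalonate kinase, Mvk (chr5:114444269-114460590, plus strand), had values of 8.99, 8.90 and 9.01 in vehicle-treated nondiabetic and 9.43, 9.56 and 9.26 in vehicle-treated diabetic mice, a rise of 0.45 ± 0.12 (limma adjusted p = 0.0262). The next kinase of the path, Pmvk (chr3:89454541-89469009, plus strand), had 8.82, 8.91 and 9.02 against 9.16, 9.36 and 9.20, a rise of 0.32 ± 0.09 (limma adjusted p = 0.0315). Both kinases were thus higher in every diabetic mouse than in any nondiabetic mouse.

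Hsd17b7 (chr1:169949537-169969205, minus strand) had values of 8.86, 8.92 and 9.04 against 9.22, 9.28 and 9.25 and rose by 0.31 ± 0.08 (limma adjusted p = 0.0196). Ebp (chrX:8185329-8193512, minus strand), the sterol isomerase that acts soon after it, had 10.58, 10.54 and 10.61 against 10.42, 10.41 and 10.33 and fell by 0.19 on the log2 scale (SE 0.06, limma adjusted p = 0.0373). These neighbouring steps therefore moved in opposite directions, each without overlap between the groups.

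Other sterol enzymes varied more between mice and did not pass. Hmgcs1 (chr13:119690351-119708260, plus strand) had values of 12.35, 12.23 and 12.48 in vehicle-treated nondiabetic and 11.98, 12.28 and 11.48 in vehicle-treated diabetic mice, with 1 diabetic mouse inside the nondiabetic range (-0.44 ± 0.17, limma adjusted p = 0.0869). Acat2 (chr17:12943042-12960725, minus strand), which joins acetyl-CoA units for the first step, had 9.68, 9.37 and 9.73 against 9.33, 9.36 and 8.94 (-0.38 ± 0.14, limma adjusted p = 0.0838). Its neighbour and close relative Acat3 is listed apart at 5.57 to 7.25, and how shared reads were assigned is not given in the sources used here.

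Tm7sf2 (chr19:6062821-6067850, minus strand), a sterol reductase whose position overlaps Vps51, had 8.51, 8.36 and 8.37 against 8.16, 8.42 and 7.69 (-0.32 ± 0.19, limma adjusted p = 0.255). Idi1 (chr13:8885606-8892396, plus strand), which isomerises the isoprenoid building block, had 10.67, 10.62 and 10.64 against 10.57, 10.73 and 10.42 (-0.06 ± 0.10, limma adjusted p = 0.685). In each of these 4 enzymes diabetic mouse 3 had the lowest value. The remaining 10 enzymes had fold changes from -0.20 (Fdft1, squalene synthase, whose position overlaps Ctsb on the other strand) to 0.30 (Sqle, squalene epoxidase), and none passed.

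The within-group SD showed that spread. Over the 18 sterol enzymes its median was 0.241 in vehicle-treated diabetic mice, against 0.097 in vehicle-treated nondiabetic, 0.124 in ATG-treated nondiabetic and 0.129 in ATG-treated diabetic mice, while over all genes it was 0.144, 0.089, 0.162 and 0.099 in the same order. Among vehicle-treated diabetic mice, mouse 3 had the lowest tubule marker mean (10.0) and mouse 2 the highest (11.4). Mouse 3 was also lowest for 13 of the 18 enzymes (72.2%, against 44.3% of all genes), and for 11 of them (61.1%, against 30.5% of all genes) the 3 mice stood in the order of their tubule marker means. In the other groups the order held for 6 enzymes (33.3%, against 21.6% of all genes) in vehicle-treated nondiabetic, 4 (22.2%, against 11.8%) in ATG-treated nondiabetic and 2 (11.1%, against 15.5%) in ATG-treated diabetic mice. The mouse with the lowest tubule mean was lowest for 11 (61.1%, against 34.03%), 9 (50%, against 38.3%) and 3 enzymes (16.7%, against 31.7%) in the same order. Both shares were thus above those of all genes in 3 groups and below them in ATG-treated diabetic mice. The part of tubule RNA in that spread was not tested.

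The 6 fatty acid enzymes were not called, at an adjusted p or at an unadjusted p of 0.05 in limma, and not by limma-voom on the reads. Fasn, the fatty acid synthase, Acly and Acaca, which makes malonyl-CoA, had fold changes of -0.0011 ± 0.10, 0.0078 ± 0.07 and 0.03 ± 0.10. Scd1 (chr19:44394450-44407709, minus strand) had values of 10.14, 10.03 and 10.38 in vehicle-treated nondiabetic and 10.00, 9.94 and 10.35 in vehicle-treated diabetic mice, and Scd2 (chr19:44293676-44306862, plus strand) had 14.39, 14.35 and 14.12 against 13.88, 13.97 and 14.35. Both desaturases overlapped between the groups (-0.09 ± 0.13 and -0.21 ± 0.15). Elovl6 (chr3:129532386-129638493, plus strand) had 9.28, 9.43 and 9.27 against 9.03, 9.25 and 8.60, just without overlap, and did not pass (-0.37 ± 0.17, limma adjusted p = 0.155). Stard4, a carrier of sterol between membranes, had 9.88, 9.98 and 9.89 against 9.66, 9.70 and 9.64, also without overlap, and did not pass (-0.25 ± 0.13, limma adjusted p = 0.175).

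**Figure D2:**
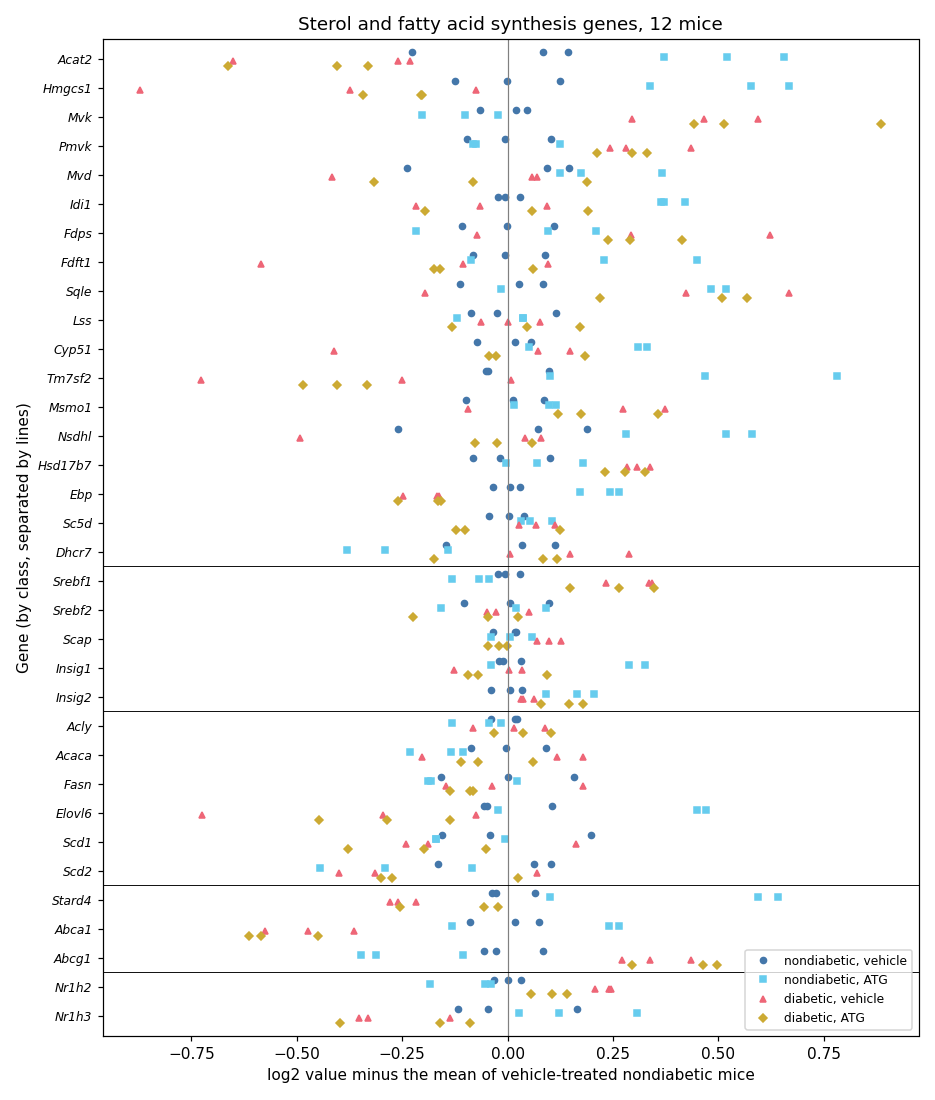
Log2 value of each of the 34 members (y axis, lines divide the classes) in each of 12 mice, minus the mean of the vehicle-treated nondiabetic mice (x axis), with colour and shape for the group. The diabetic mice lie to the left for Abca1 and Ebp and to the right for Mvk, Pmvk, Srebf1, Abcg1 and Nr1h2, and the ATG-treated nondiabetic mice lie to the right for Acat2, Hmgcs1, Idi1 and Ebp.

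The tubule marker mean was lower in every diabetic than in every nondiabetic mouse. When that mean entered the fit as a covariate, none of the 8 members called in vehicle-treated mice passed (Srebf1 0.378, adjusted p = 0.0574, Abca1 -0.476, adjusted p = 0.136, and Abcg1 0.181, adjusted p = 0.426, in limma), and 3 other members were called, Fdps and Sqle higher and Scd2 lower. Calls among all genes fell too, from 18.9% to 5.77%. The fold changes of Mvk (0.550), Pmvk (0.434), Hsd17b7 (0.342) and Nr1h2 (0.255) were no smaller than before, with larger standard errors (0.207, 0.151, 0.132 and 0.0941). All 8 kept their direction, with Ebp reduced from -0.19 to -0.110 (limma adjusted p = 0.476), whereas Acat2 (0.165), Hmgcs1 (0.252) and Tm7sf2 (0.318) turned to positive fold changes. The count of 8 also rested on single mice: it was 1 without the first, 3 without the second and 5 without the unnumbered vehicle-treated nondiabetic mouse, and 2 without the first vehicle-treated diabetic mouse, and in all of these Srebf1 was called. Over all genes the share called was 5.68%, 11.3%, 8.95% and 7.12% in the same order, down from 18.9%.

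The same comparison in ATG-treated mice asked how diabetic and nondiabetic glomeruli differed under the drug. Here 15 of 34 members (44.1%) were called, against 46.7% of all genes, with 5 higher (against 25.9%) and 10 lower (against 20.8%). The median log2 fold change of the members was -0.049, against 0.053 for all genes. Abca1 was lower (10.16, 10.14 and 10.30 in diabetic against 10.99, 10.62 and 11.02 in nondiabetic mice, -0.67 ± 0.11, limma adjusted p = 0.000864). Abcg1 was higher (10.33, 10.16 and 10.36 against 9.52, 9.76 and 9.55, 0.67 ± 0.09, limma adjusted p = 0.000333). The exporters thus again moved apart, without overlap. In the same mice the endothelial marker mean (13.2 in diabetic against 11.8 to 12.5 in nondiabetic mice) and the mesangial marker mean (11.5 to 11.7 against 10.5 to 10.9) were higher in diabetes, also without overlap.

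Of the receptors and regulators, Nr1h2 was higher (11.65, 11.73 and 11.70 against 11.55, 11.54 and 11.41, 0.19 ± 0.06, limma adjusted p = 0.0167) and Nr1h3 lower (9.14, 9.21 and 8.90 against 9.61, 9.42 and 9.33, -0.37 ± 0.11, limma adjusted p = 0.0225). Srebf1 was higher (10.93, 11.04 and 11.13 against 10.73, 10.65 and 10.71, 0.33 ± 0.06, limma adjusted p = 0.00205). Srebf2 (11.58, 11.76 and 11.83 against 11.90, 11.65 and 11.83) again overlapped between diabetic and nondiabetic mice.

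Among the sterol enzymes, Mvk (9.48, 9.41 and 9.85 against 8.76, 8.87 and 8.94, 0.72 ± 0.12, limma adjusted p = 0.00109) and Pmvk (9.13, 9.25 and 9.22 against 8.84, 8.85 and 9.04, 0.29 ± 0.09, limma adjusted p = 0.0208) were higher. Acat2 fell furthest (9.19, 9.26 and 8.93 against 10.25, 9.96 and 10.11, -0.98 ± 0.14, limma adjusted p = 0.000595). Tm7sf2 was lower (8.01, 7.93 and 8.08 against 8.88, 8.51 and 9.20, -0.86 ± 0.19, limma adjusted p = 0.00484). Hmgcs1 was lower too (12.01, 12.15 and 12.15 against 13.02, 12.69 and 12.93, -0.78 ± 0.17, limma adjusted p = 0.00394). All of these were without overlap between the groups, and so was Ebp (10.42, 10.41 and 10.32 against 10.75, 10.82 and 10.84, -0.42 ± 0.06, limma adjusted p = 0.000413).

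Idi1 (10.45, 10.70 and 10.83 against 11.00, 11.01 and 11.06) and Nsdhl, which helps strip methyl groups from the sterol ring, were lower, with fold changes of -0.37 ± 0.10 and -0.48 ± 0.16 (limma adjusted p = 0.0119 and 0.03). Stard4 was lower (9.66, 9.86 and 9.90 against 10.51, 10.02 and 10.56, -0.56 ± 0.13, limma adjusted p = 0.00491), and so was Elovl6 (9.04, 8.88 and 9.19 against 9.78, 9.31 and 9.80, -0.59 ± 0.17, limma adjusted p = 0.0173). Hsd17b7, called in vehicle-treated mice, missed the threshold here (9.17, 9.22 and 9.27 against 9.12, 9.01 and 8.94, 0.20 ± 0.08, limma adjusted p = 0.0517). In Scd1 (9.81, 10.14 and 9.99 against 10.02, 10.18 and 10.02) and Scd2 (13.98, 14.01 and 14.31 against 13.84, 14.20 and 13.99) the groups overlapped, and neither passed.

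In the limma fit that held the tubule marker mean, none of the 15 passed, against 1.66% of all genes called. An unadjusted p under 0.05 was found for 10 members (29.4%, against 20.3% of all genes). Hmgcs1 (0.0854), Elovl6 (0.0603), Nsdhl (0.265) and Nr1h3 (0.00466) turned to positive fold changes, while Abca1 was at -0.681 (limma adjusted p = 0.121) and Mvk at 0.847 (limma adjusted p = 0.0957). Acat2 moved from -0.98 to -0.301 and Tm7sf2 from -0.86 to -0.0564. This comparison shares no mouse with the one in vehicle-treated mice, but both entered the same fit and share its estimate of spread.

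**Figure D3:**
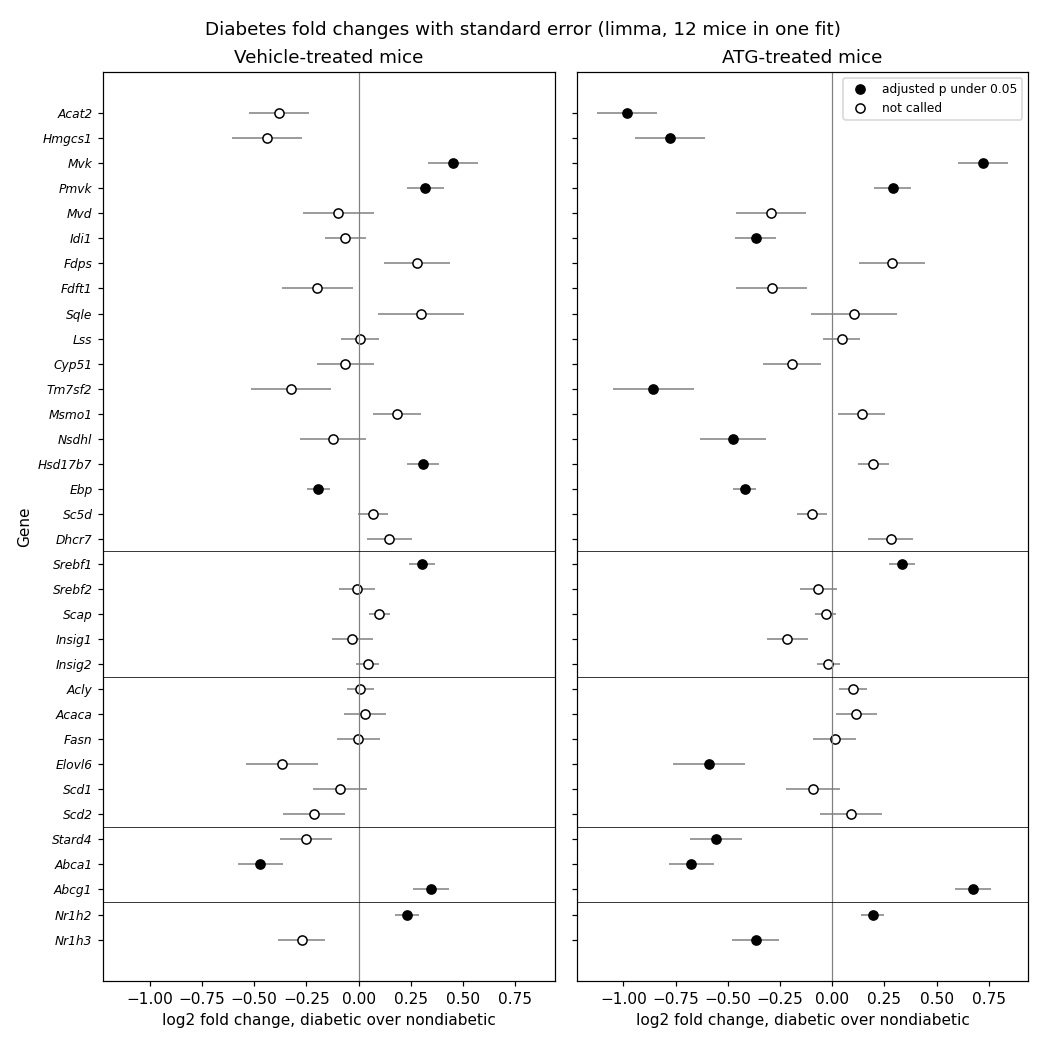
Log2 fold change, diabetic over nondiabetic (x axes), with its standard error, for the 34 members (y axis) in vehicle-treated mice (left) and ATG-treated mice (right). Filled points passed an adjusted p of 0.05 in limma: 8 on the left and 15 on the right.

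ATG in nondiabetic mice was compared with vehicle next. Idi1 and Ebp were called, both higher, that is 2 of 34 members (5.88%) against 5.22% of all genes in either direction, with 0.709% of all genes higher and 4.51% lower. Idi1 had 10.67, 10.62 and 10.64 with vehicle and 11.00, 11.01 and 11.06 with ATG (0.38 ± 0.10, limma adjusted p = 0.0499). Ebp had 10.58, 10.54 and 10.61 with vehicle and 10.75, 10.82 and 10.84 with ATG (0.23 ± 0.06, limma adjusted p = 0.0452). Both lay close to the threshold, and each was called in 7 of 21 alternative settings. Leaving out any of 8 mice, all 3 given vehicle among the nondiabetic included, left no member called (limma, against 0.426% to 2.84% of all genes). In these fits 6 to 10 members (17.6% to 29.4%, against 18.1% to 28.3% of all genes) had an unadjusted p under 0.05.

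Of the 18 sterol enzymes, 14 had positive fold changes, and their median was 0.21, against -0.039 for all genes. Without overlap between the mice, 8 members were higher with ATG (23.5%, against 14.4% of all genes): Acat2, Hmgcs1, Idi1, Tm7sf2, Nsdhl, Ebp, Insig2 and Stard4. Hmgcs1 stood at 13.02, 12.69 and 12.93 against 12.35, 12.23 and 12.48 with vehicle (0.53 ± 0.17, limma adjusted p = 0.0807), and Acat2 at 10.25, 9.96 and 10.11 against 9.68, 9.37 and 9.73 (0.52 ± 0.14, limma adjusted p = 0.0598). Without overlap 4 members were lower (11.8%, against 20.0% of all genes): Srebf1, Acaca, Abcg1 and Nr1h2. Abcg1 stood at 9.52, 9.76 and 9.55 against 9.84, 9.95 and 9.81 (-0.25 ± 0.09, limma adjusted p = 0.0936). Abca1 did not separate (10.99, 10.62 and 11.02 against 10.77, 10.82 and 10.66).

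ATG-treated nondiabetic mouse 2 stood apart from its group in many of these. It was lowest of the 3 for Hmgcs1, Acat2, Tm7sf2, Stard4 and Abca1, and it had a tubule marker mean of 12.4, against 12.9 and 12.8 in mouse 1 and in the unnumbered mouse, and a podocyte marker mean of 14.1, against 13.4 and 12.9. Without it 9 members were called: Abca1, Acat2, Ebp, Hmgcs1, Idi1, Nsdhl, Stard4 and Tm7sf2 higher and Abcg1 lower. That is 26.5% of members, against 25.0% of all genes called without that mouse. Without the third vehicle-treated diabetic mouse, which enters by the shared spread alone, 5 were called (14.7%, against 10.1% of all genes). No member was called in the limma fit that held the tubule marker mean, against 0.709% of all genes. In that fit 7 members (20.6%, against 14.8% of all genes) had an unadjusted p under 0.05. There Idi1 was at 0.311 (limma adjusted p = 0.231) and Ebp at 0.187 (limma adjusted p = 0.202).

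**Figure D4:**
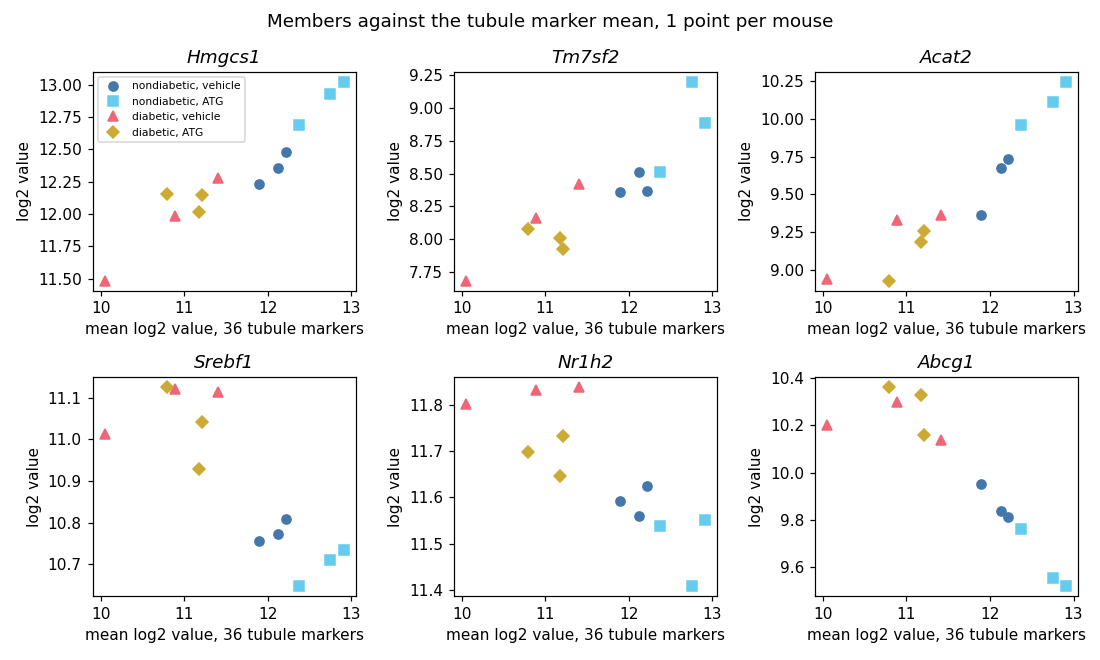
Log2 value of 6 members (y axes) against the mean log2 value of 36 tubule markers (x axes), 1 point per mouse, with colour and shape for the group. Over the 12 mice Hmgcs1, Tm7sf2 and Acat2 broadly lie higher where the marker mean is higher. Within groups that order fails for Hmgcs1 in the ATG-treated diabetic mice, and for Tm7sf2 in every group but the vehicle-treated diabetic mice. Srebf1, Nr1h2 and Abcg1 lie lower in the nondiabetic mice, whose marker means are 11.9 to 12.9.

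ATG in diabetic mice was the comparison of treatment with disease. None of the 34 members was called (limma, 0% of all genes), 2 members and 636 genes had an unadjusted p under 0.05, and limma-voom called no member. Fold changes of the members ran from -0.14 (Dhcr7, the last reductase of the path) to 0.19 (Hmgcs1), with standard errors of 0.05 to 0.21. Without overlap, 1 member was higher with ATG (2.94%, against 3.85% of all genes): Insig2, at 10.52, 10.45 and 10.55 against 10.43, 10.40 and 10.41 (0.09 ± 0.06). Lower without overlap were 2 (5.88%, against 6.32% of all genes): Nr1h2, at 11.65, 11.73 and 11.70 against 11.83, 11.84 and 11.80 (-0.13 ± 0.06), and Scap (-0.12 ± 0.05). Abca1 stayed at 10.16, 10.14 and 10.30 against 10.39, 10.17 and 10.28 (-0.08 ± 0.11), and Ebp differed by -0.00089 ± 0.06. Insig1 (9.96, 10.15 and 9.99 against 10.06, 10.09 and 9.93 with vehicle) overlapped too.

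The difference between the effect of ATG in diabetic and in nondiabetic mice was tested as an interaction. It was called for none of the 34 members by limma or limma-voom, against 0.546% of all genes, and 3 members (8.82%, against 12.9% of all genes) had an unadjusted p under 0.05. These were Acat2 (-0.60 ± 0.20, limma adjusted p = 0.251), Ebp (-0.23 ± 0.08, limma adjusted p = 0.274) and Abcg1 (0.33 ± 0.12, limma adjusted p = 0.299). The sterol enzymes had a median interaction of -0.15, against 0.015 for all genes, with 14 of 18 negative. Without the second ATG-treated nondiabetic mouse, Stard4 was the 1 member called (2.94%, against 5.46% of all genes).

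**Figure D5:**
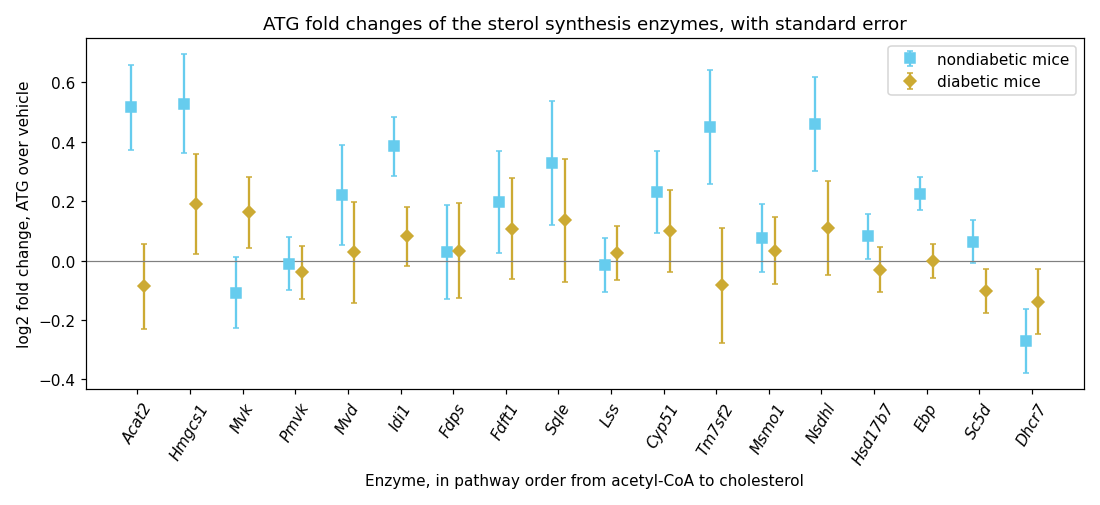
Log2 fold change, ATG over vehicle (y axis), with its standard error, for the 18 sterol enzymes in pathway order (x axis), in nondiabetic (squares) and diabetic mice (diamonds). In nondiabetic mice 14 of 18 are positive, up to 0.53 for Hmgcs1, and in diabetic mice 11 of 18, up to 0.19 for the same gene.

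Other genes of the pathways were counted from wider lists. Of 11 further sterol genes listed of 12, 2 (18.2%, against 18.9% of all genes) were called for diabetes in vehicle-treated mice, higher Ch25h, which makes an oxysterol (1.81 ± 0.43, limma adjusted p = 0.0186), and lower Cyp39a1, an oxysterol hydroxylase. Ch25h had 7.21, 7.85 and 7.74 in nondiabetic and 9.66, 9.49 and 9.07 in diabetic mice, without overlap, and 9.17, 8.27 and 8.29 in diabetic mice given ATG. The last 2 groups overlapped, and ATG in diabetic mice did not pass for Ch25h (-0.83 ± 0.43, limma adjusted p = 1.00). The leukocyte marker mean was 8.10, 8.73 and 8.27 in the nondiabetic, 9.09, 9.09 and 8.59 in the diabetic and 8.87, 8.02 and 8.40 in the ATG-treated diabetic mice, and its part in the Ch25h values was not tested.

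Of 10 listed LXR target or partner genes of 12, 2 (20%, against 10.2% of all genes) were higher in diabetes with vehicle, Abca7 (0.50 ± 0.06, limma adjusted p = 0.00199) and Arl4c (0.71 ± 0.16, limma adjusted p = 0.0151), and 8 were not called. With ATG in nondiabetic mice 3 (30%, against 5.22% of all genes) were called, Pltp (-0.83 ± 0.16) and Abca7 (-0.35 ± 0.06) lower and Smpdl3a (0.45 ± 0.10) higher. With the tubule marker mean in the limma fit, 0 of the 10 were called there, against 0.709% of all genes. An unadjusted p under 0.05 was found for 3 of the 10, against 14.8% of all genes. Of 11 listed genes of 13 in SREBP processing and its regulation, 2 (18.2%, against 8.63% of all genes) were lower in diabetes with vehicle (Prkaa2, a subunit of the AMP-activated kinase, among them), and 5 (45.5%, against 46.7%) were called in ATG-treated mice, 4 of them lower. With the tubule marker mean in the limma fit, 0 of the 11 were called in ATG-treated mice, against 1.66% of all genes. An unadjusted p under 0.05 was found for 4 of the 11, against 20.3% of all genes.

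Of 18 listed genes of 22 for sterol uptake and storage, 2 (11.1%, against 10.2% of all genes) were higher in diabetes with vehicle, the HDL receptor Scarb1 (0.25 ± 0.07, limma adjusted p = 0.0373) and Stard3. With ATG in nondiabetic mice Lrp1, a lipoprotein receptor, was lower (-1.10 ± 0.10, limma adjusted p = 0.00125) and Nceh1, a cholesteryl ester hydrolase, was higher (0.41 ± 0.10, limma adjusted p = 0.0391). With the tubule marker mean in the limma fit, Lrp1 was called and Nceh1 was not. In these mice the mesangial (10.5 to 10.9, against 11.4 to 11.8), endothelial (11.8 to 12.5, against 12.7 to 12.8) and leukocyte marker means (7.66 to 8.06, against 8.10 to 8.73) were lower with ATG, without overlap, and their part in the change of Lrp1 was not tested. Of 36 listed genes of 40 for activation, elongation, storage and regulation of fatty acids, 12 (33.3%, against 18.9% of all genes) were called for diabetes with vehicle, 3 higher and 9 lower, and 25 (69.4%, against 46.7%) in ATG-treated mice, 7 higher and 18 lower. Gpam, the first enzyme of triglyceride assembly, fell by 0.78 on the log2 scale (SE 0.13, limma adjusted p = 0.00518), with G0s2, an inhibitor of fat breakdown, at -1.96 (SE 0.45, limma adjusted p = 0.0166). Higher were Plin2, a lipid droplet coat protein (0.55 ± 0.13, limma adjusted p = 0.0197), and Elovl1 (0.27 ± 0.06, limma adjusted p = 0.0145). With the tubule marker mean in the limma fit, 3 of the 36 fatty acid genes were called for diabetes with vehicle (Elovl1, Plin2 and Slc25a1), against 5.77% of all genes. In ATG-treated mice 0 were called, against 1.66% of all genes, and 8 had an unadjusted p under 0.05, against 20.3%. In the same fit, for diabetes with vehicle, 2 of the 10 LXR genes (Abca7 and Ncor1) and 1 of the 11 SREBP genes (Rnf145) were called. So were 2 of the 18 uptake and storage genes (Apoe and Stard3), all against 5.77% of all genes. Of the 11 further sterol genes 0 were called, and 2 had an unadjusted p under 0.05, against 26.6% of all genes.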

How the data were processed

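The authors deposited 1 table per mouse with log2 values, which are reads per gene multiplied by 1 factor per library and not divided by length (83.4% to 83.9% of values under 2000 reads came out whole within 0.02 reads). The submitters' processing notes name mm10 and limma, and the aligner and counter are not given in the sources used here. The 34 members, the wider lists, the markers and the motifs were chosen with earlier results of these data known. All 12 mice entered 1 fit of the 4 groups in limma 3.58.1 (R 4.3.3), with a trend in the prior variance, and genes were called below 0.05 after Benjamini-Hochberg adjustment across the 14096 genes. The script was tested on simulated data.

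Named mouse by mouse were members called in any of 5 contrasts (at most 14, by lowest p), the member with the largest fold change for diabetes of each class and both genes of 5 pairs. Called genes of the wider lists were named up to 5 per direction and contrast, with a few others named to complete a count of 5 or fewer, chosen after their values were seen. Some genes of the wider lists are counted but not reported singly here. Reads per kilobase used the deposited transcript lengths. Counting error at a member's lowest read number was 0.0129 to 0.101 on the log2 scale, above the median within-group SD in 3 of 34 members and above the smallest in 14. Alternatives were a filter at 10 reads per mouse, log2 of the linear value plus 1, median-ratio scaling, limma-voom on recovered whole reads, a trendless prior, only the groups compared, a replicate block, each mouse left out, both unnumbered mice left out and the tubule marker mean as a covariate. Figures were drawn with matplotlib 3.10.9.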

Additional observations from a re-analysis of the deposited data

Results flagged for a closer look

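Among genes of the wider lists, 2 were picked out because the effect of ATG differed between diabetic and nondiabetic mice. Lrp1 had log2 values of 11.94, 12.01 and 12.19 with vehicle and 11.13, 10.95 and 10.76 with ATG in nondiabetic mice, and 11.88, 11.998 and 12.03 with vehicle and 12.01, 12.12 and 12.07 with ATG in diabetic mice. The difference between the ATG effects was 1.20 ± 0.14 (log2 ± SE, limma adjusted p = 0.00683), with adjusted p from 0.00595 to 0.0503 over its alternatives. The mesangial marker mean was likewise low in ATG-treated nondiabetic mice alone (10.5 to 10.9, against 11.3 to 11.8 in the other groups), as was the endothelial mean (11.8 to 12.5, against 12.7 to 13.2), and their part in this difference was not tested. Mlxip, a glucose-responsive transcription factor gene, had 10.05, 10.09 and 10.16 with vehicle and 9.80, 9.90 and 9.72 with ATG in nondiabetic mice, and 10.09, 10.04 and 10.29 with vehicle and 10.48, 10.34 and 10.59 with ATG in diabetic mice. Every ATG-treated mouse was below vehicle in the nondiabetic and above it in the diabetic arm, but the difference of 0.62 ± 0.13 missed the threshold (limma adjusted p = 0.0583, and 0.0222 to 0.266 over its alternatives).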

How the results depend on the processing

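For diabetes in vehicle-treated mice, 8 members were called. The alternatives gave 5 without both unnumbered mice, 3 with the replicate block and 3 with the tubule covariate (13%, 9.75% and 5.77% of all genes, from 18.9%). Leaving out each mouse gave 1 to 9 members, and 5.68% to 23.8% of all genes. For ATG in nondiabetic mice, 2 were called, and the alternatives gave 0 without both unnumbered mice, 0 without a trend, 0 with only the groups compared, 0 with the tubule covariate, 1 with limma-voom and 0 to 9 leaving out each mouse (9 without ATG-treated nondiabetic mouse 2, 5 without vehicle-treated diabetic mouse 3, 1 without ATG-treated diabetic mouse 1, 2 without vehicle-treated diabetic mouse 2, and 0 without any other). Of all genes 5.22% were called in the main fit. In the same order, up to limma-voom, the alternatives gave 0.0568%, 4.27%, 0%, 0.709% and 5.21% of all genes, and leaving out each mouse gave 0.426% to 25%. For diabetes in ATG-treated mice, 15 were called, and the alternatives gave 0 with the tubule covariate, 11 to 16 leaving out each mouse and from 10 with the replicate block to 17 with limma-voom otherwise (of all genes 1.66% with the covariate, 33.8% to 52.9% leaving out each mouse, 31.4% with the block and 46.7% with limma-voom). The interaction had 0 (against 0.546% of all genes), and 0 to 1 leaving out each mouse (against 0.0426% to 5.46% of all genes). ATG in diabetic mice had 0 throughout, with 0% of all genes. With the tubule covariate the fold change for diabetes in vehicle-treated mice turned positive for Acat2 (0.17), Elovl6 (0.15), Hmgcs1 (0.25), Idi1 (0.096), Insig1 (0.10), Nr1h3 (0.025), Srebf2 (0.067) and Tm7sf2 (0.32), and in ATG-treated mice for Elovl6 (0.060), Hmgcs1 (0.085), Nr1h3 (0.0047) and Nsdhl (0.27). Leaving out single mice turned it for Idi1 (-0.14 to 0.014), Insig1 (-0.062 to 0.018), Scd1 (-0.215 to 0.0085, and 0.0085 without both unnumbered mice) and Srebf2 (-0.060 to 0.040) in vehicle-treated mice. Of 901 values of 43 single results, 764 kept their direction and side of the threshold, 110 fell below it, 8 passed it and 19 reversed, and the cause was not tested. Over 13 pairs of mice with equal numbers the correlation of deviations ran from -0.59 to 0.34, above 0.1 in 5. Of 10 numbered mice, 5 correlated best with their own number. Such mixed values cannot decide whether the numbers pair the mice, so the replicate block may join mice that share only a number.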
